A study of Homo sapiens with 2 samples.

Results

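The nuclear genes that encode succinate dehydrogenase (complex II), the cytochrome bc1 complex (complex III), cytochrome c, cytochrome c oxidase (complex IV) and ATP synthase (complex V) were followed in A549 cells, a human lung adenocarcinoma line. They were taken from the deposited gene table by symbol: SDHA to SDHD, CYC1, CYCS and every symbol starting with UQCR, COX4 to COX8 or ATP5, without pseudogenes. The table held 13137 genes, and 42 of them matched. Among these, 39 were counted as subunits or cytochrome c itself, namely 4 for complex II, 9 for complex III, 1 for cytochrome c, 12 for complex IV and 13 for complex V. The 12 include COX7A2L, a factor that joins complexes III and IV, and all 39 are called subunits below. The other three matched by name alone and are given apart. The study compared A549 cells carrying a doxycycline-inducible short hairpin RNA against SOX2 (H1TetO-shRNA-SOX2) with A549 cells carrying an inducible scrambled hairpin (H1TetO-shRNA-Con). Each was a puromycin-selected polyclonal culture made with lentivirus, both were incubated with doxycycline for 4 days, and the H1 promoter drove the hairpins. There was 1 library per condition, so no value below has a replicate check.

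Electrons from succinate enter the chain through complex II, and those from ubiquinol pass through complex III to cytochrome c and on to complex IV, which reduces oxygen. Complexes III and IV pump protons across the inner mitochondrial membrane, and the proton current drives the rotor of complex V to make ATP. The catalytic cores of complexes III and IV and part of the membrane sector of complex V are completed by proteins of the mitochondrial genome, while complex II is built from nuclear genes alone. The nuclear genes are usually read together, with promoters known for binding sites of NRF1, GABPA and YY1.

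Digital gene expression takes a short tag from each captured mRNA molecule and counts tags, so a level was read without division by transcript length. The table held 2304184 tags on genes for shRNA-Con and 2093816 for shRNA-SOX2. Its columns carry the abbreviations SC and S1, which were read as shRNA-Con and shRNA-SOX2, and every direction below rests on that reading. SOX2 itself, the targeted mRNA, had 16 tags under the label shRNA-Con and 23 under the label shRNA-SOX2 (ratio 1.58, 95% interval 0.80 to 3.2). No fall of SOX2 was seen under its own label, and ratios below 0.80 lay outside the interval. Of the markers of this line, KRT8, KRT18, ALDH1A1 and AKR1B10 had between 4581 and 14268 tags in either library, while CDH1 had 50 and 50 and EPCAM 8 and 4. Leukocyte and endothelial markers were at the floor, with PTPRC at 2 and 2 tags and PECAM1 at 3 and 0, and COL1A1 of fibroblasts had 44 and 43. The 6 markers of the line summed to 31152 and 39519 tags, of which ALDH1A1 gave 7035 and 14268. By the test given next 2 of the markers were higher and 2 lower in shRNA-SOX2. Their part in the results was not tested. In such bulk samples fewer cells of a kind and less RNA per cell cannot be told apart.

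In what follows counts are given in the order shRNA-Con, shRNA-SOX2 (by label), and "higher" or "lower" refers to the library labelled shRNA-SOX2. A ratio is the share of gene tags in that library over the share in shRNA-Con. Its interval is the exact (Clopper-Pearson) 95% interval and covers counting error only. A gene was called when a two-sided Fisher's exact test of its tags against the remaining gene tags passed FDR 0.001 after Benjamini-Hochberg adjustment over all 13137 genes. This test compares the libraries, not the conditions. Because abundant genes pass it more easily, a ratio of at least 1.5 in either direction was counted as well.

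The subunits did not move as a block. Of the 39 genes 19 were called, 11 higher and 8 lower, and 20 were not. Over all genes 21.7% were called (9.53% higher and 12.2% lower), and among the 3926 genes with at least 200 tags, a level that 33 of the 39 reached, the share was 48.1% (20.7% higher and 27.4% lower). The 48.7% of all 39 subunits called was near the latter share. It includes subunits under 200 tags, and the sets were not matched further for numbers of tags. Past 1.5-fold were 12 of the 37 subunits with at least 20 tags, 8 higher and 4 lower, but with clean tags, the scaling described below, 6 were higher and 9 lower. Of all genes with at least 20 tags 47.1% were past it (20.5% higher and 26.6% lower), and of those with at least 200 tags 41.2% (17.1% higher and 24.1% lower). The median log2 ratio over these 37 subunits was 0.00, with a range from -1.41 to 2.17, and that over the 10045 genes with at least 20 tags was -0.10. Calls of subunits were lower in 42.1% of cases with gene tags, in 36.8% with TMM factors and in 55.6% when the libraries were scaled by all clean tags, which shifts every log2 ratio by -0.11. Over all genes called these shares were 56.1%, 49.4% and 66.6%, so both moved with the scaling. No spread between cultures was measured. Where edgeR's exact test was given one, 5 subunits were called at a coefficient of variation of 0.1 and 0 at 0.2, where 6 of 39 had an unadjusted p under 0.05.

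Levels spanned a wide range. In the authors' TPM, which scales tags to the clean tags of the library, CYC1 was the most abundant subunit of shRNA-Con (756 TPM), ahead of COX6A1 (737), COX4I1 (667) and ATP5B (628). In shRNA-SOX2 the order began with COX6B1 (998 TPM), ATP5G3 (891) and ATP5L (759), with CYC1 at rank 4 (699). Among the genes with at least 20 tags UQCRB and SDHA were the least abundant in shRNA-Con, at 3.70 and 7.96 TPM, and SDHA and COX7A2 in shRNA-SOX2, at 7.52 and 13.3 TPM, with UQCRB at 15.3 TPM. Complex II as a whole took 0.0328% and 0.0307% of gene tags, complex III 0.286% and 0.273%, complex IV 0.519% and 0.554% and complex V 0.541% and 0.744%.

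**Figure D1:**
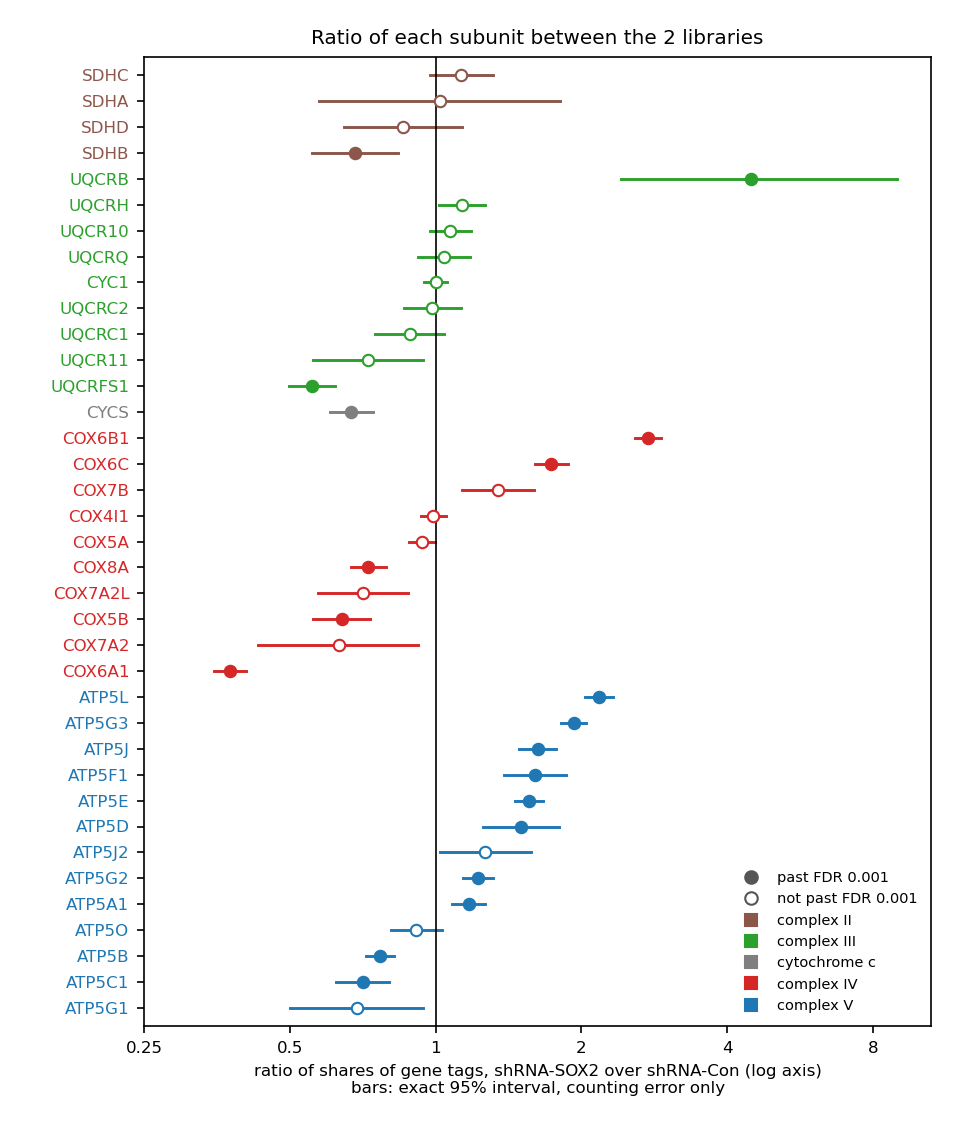
Ratio of the share of gene tags, shRNA-SOX2 over shRNA-Con, for the 37 subunit genes with at least 20 tags (log axis), sorted within each complex and coloured by complex. Bars are exact 95% intervals from counting error, and filled points are past FDR 0.001. Points of complex V lie mostly right of 1, while complex IV spans from 0.376 (COX6A1) to 2.74 (COX6B1).

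Complex II carried the fewest tags, 755 and 642 over its 4 genes, and its pooled ratio was 0.936 (0.841 to 1.04). SDHB, the iron-sulfur subunit, had 250 and 155 tags and was the only member called (ratio 0.682, interval 0.555 to 0.837, adjusted p = 0.000857, Fisher's exact test). That call was lost with TMM factors and with DESeq2's size factors. The membrane anchors had 359 and 369 tags (SDHC) and 118 and 92 tags (SDHD), with intervals that held 1. SDHA, the flavoprotein that oxidizes succinate, had only 28 and 26 tags, and its interval of 0.576 to 1.81 leaves changes within it undetectable at this depth. Within a library, SDHB had 0.696 tags per tag of SDHC in shRNA-Con (0.590 to 0.821) and 0.420 in shRNA-SOX2 (0.346 to 0.508). Subunits that stand in equal number in the enzyme therefore had unequal tags in both libraries.

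In complex III 7 of 9 subunits were not called, and the called pair went in opposite directions. CYC1, the cytochrome c1 that hands electrons to cytochrome c, had the most tags of all subunits in shRNA-Con, and its 2658 and 2417 tags gave a ratio of 1.001 (0.947 to 1.06). The core proteins UQCRC1 (331 and 266 tags) and UQCRC2 (455 and 407) and the small subunits UQCR10 (843 and 822), UQCRQ (523 and 495), UQCRH (654 and 675) and UQCR11 (153 and 101) were not called either. Among these, UQCR11 had a ratio of 0.726 (0.559 to 0.940) and UQCRH of 1.14 (1.02 to 1.27), with intervals that leave out 1. UQCRFS1, the Rieske iron-sulfur protein (Entrez Gene ID 7386), had 964 and 487 tags, a ratio of 0.556 (0.498 to 0.621, adjusted p = 9.37e-26, Fisher's exact test). Read against CYC1 in the same library, which no scaling can change, UQCRFS1 had 0.363 tags per CYC1 tag in shRNA-Con (0.337 to 0.391) and 0.201 in shRNA-SOX2 (0.182 to 0.222). UQCRB, a small subunit near the ubiquinone site, had 13 and 53 tags and the highest ratio of all members, 4.49, with a wide interval of 2.41 to 8.97 (adjusted p = 6.60e-07, Fisher's exact test). UQCRB ranked 37 of 39 in tags in shRNA-Con and 35 of 39 in shRNA-SOX2, so that its ratio rests on few tags. The pooled ratio of complex III was 0.955 (0.922 to 0.990) with gene tags and 1.005 with TMM factors, which leaves its direction dependent on the scaling.

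The promoter of UQCRFS1 is shown because this gene fell most among the electron carriers of the complex. The sequence covers 250 bases before to 50 after the annotated start and comes from RefSeq (GRCh38.p14, minus strand, chr19:29213102-29213401), written 5′ to 3′. Capitals mark matches to the NRF1 letters, GCGCA, any base and GCGC in a row, and to the YY1 letters AANATGGCG on either strand, 1 of each here.
UQCRFS1: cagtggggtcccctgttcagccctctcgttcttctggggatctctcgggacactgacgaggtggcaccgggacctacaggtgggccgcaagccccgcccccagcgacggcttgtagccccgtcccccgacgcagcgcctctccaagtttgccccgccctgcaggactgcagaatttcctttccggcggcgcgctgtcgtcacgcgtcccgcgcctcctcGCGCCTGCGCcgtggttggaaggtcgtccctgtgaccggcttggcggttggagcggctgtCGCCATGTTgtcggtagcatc

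Cytochrome c, the mobile carrier between complexes III and IV, was lower. CYCS (Entrez Gene ID 54205) had 970 and 591 tags, a ratio of 0.670 (0.604 to 0.743, adjusted p = 1.52e-13, Fisher's exact test). RefSeq lists 45 pseudogenes named after CYCS, the most of any member, and the table does not say how tags shared with such copies were counted.

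Complex IV showed the widest spread among abundant subunits. COX6B1 and COX6A1 moved in opposite directions, and the more abundant of the pair changed from COX6A1 to COX6B1. COX6B1 (Entrez Gene ID 1340), which faces the intermembrane space, had 1384 and 3449 tags, a ratio of 2.74 (2.58 to 2.92, adjusted p = 5.79e-243, Fisher's exact test). COX6A1 (Entrez Gene ID 1337), the form of subunit VIa found outside heart and muscle, had 2593 and 887 tags, a ratio of 0.376 (0.348 to 0.406, adjusted p = 8.22e-156, Fisher's exact test). COX6B1 went from rank 9 to rank 1 of the 39 genes, and COX6A1 from rank 2 to rank 14. In shRNA-Con there were 1.87 tags of COX6A1 per tag of COX6B1 (1.75 to 2.001), and in shRNA-SOX2 there were 0.257 (0.239 to 0.277). Both were also called at a coefficient of variation of 0.1.

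Promoters of COX6B1 and COX6A1 follow, as the subunits of complex IV with the highest and the lowest ratio. Both are from RefSeq, GRCh38.p14, plus strand, chr19:35648073-35648372 for COX6B1 and chr12:120437863-120438162 for COX6A1. Capitals mark the GABPA (ETS) letters CCGGAAG on either strand, found 1 time in each, and for COX6A1 also the YY1 letters. Both promoters hold the ETS match, and of the pair only COX6A1 holds the YY1 match. The part of either match in the ratios was not tested.
COX6B1: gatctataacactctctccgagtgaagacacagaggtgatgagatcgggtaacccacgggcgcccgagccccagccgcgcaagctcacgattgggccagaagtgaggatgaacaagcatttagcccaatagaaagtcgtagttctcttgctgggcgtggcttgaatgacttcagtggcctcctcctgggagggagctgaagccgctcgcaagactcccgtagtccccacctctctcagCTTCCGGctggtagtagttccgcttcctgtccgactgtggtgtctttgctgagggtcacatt
COX6A1: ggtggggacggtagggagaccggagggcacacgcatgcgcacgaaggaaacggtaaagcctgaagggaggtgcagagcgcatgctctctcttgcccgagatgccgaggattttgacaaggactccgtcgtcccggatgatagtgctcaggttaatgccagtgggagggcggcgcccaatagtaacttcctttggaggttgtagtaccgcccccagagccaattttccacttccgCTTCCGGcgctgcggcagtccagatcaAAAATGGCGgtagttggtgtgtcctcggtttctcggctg

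Of the other complex IV genes, COX6C was higher with 1023 and 1611 tags (ratio 1.73, 1.60 to 1.88, adjusted p = 2.28e-42, Fisher's exact test). COX5B, the zinc-binding subunit, was lower with 579 and 337 tags (ratio 0.641, 0.558 to 0.734, adjusted p = 5.97e-10, Fisher's exact test). COX8A, a small membrane subunit, was lower with 1364 and 901 tags (ratio 0.727, 0.668 to 0.791, adjusted p = 1.15e-12, Fisher's exact test). COX4I1 and COX5A, which join early in assembly, had 2344 and 2108 and 2118 and 1806 tags and were not called, with ratios of 0.990 (0.933 to 1.05) and 0.938 (0.881 to 0.9996). COX7B had 251 and 307 tags with a ratio of 1.35 (1.14 to 1.60), short of FDR 0.001 (adjusted p = 0.00210, Fisher's exact test). COX6B2, the testis form of COX6B1, had 2 and 2 tags and COX8C 0 and 3, so no fold was taken for either. A count of 0 allows up to 3 tags, or 0.853 TPM in shRNA-Con. The pooled ratio of complex IV was 1.07 (1.04 to 1.09) with 11965 and 11603 tags, and it was 0.848 without COX6B1 and 0.987 with clean tags. Its direction therefore rested on COX6B1 and on the scaling. Of the 12 members, 7 had intervals wholly below the pooled ratio and 3 wholly above it.

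**Figure D2:**
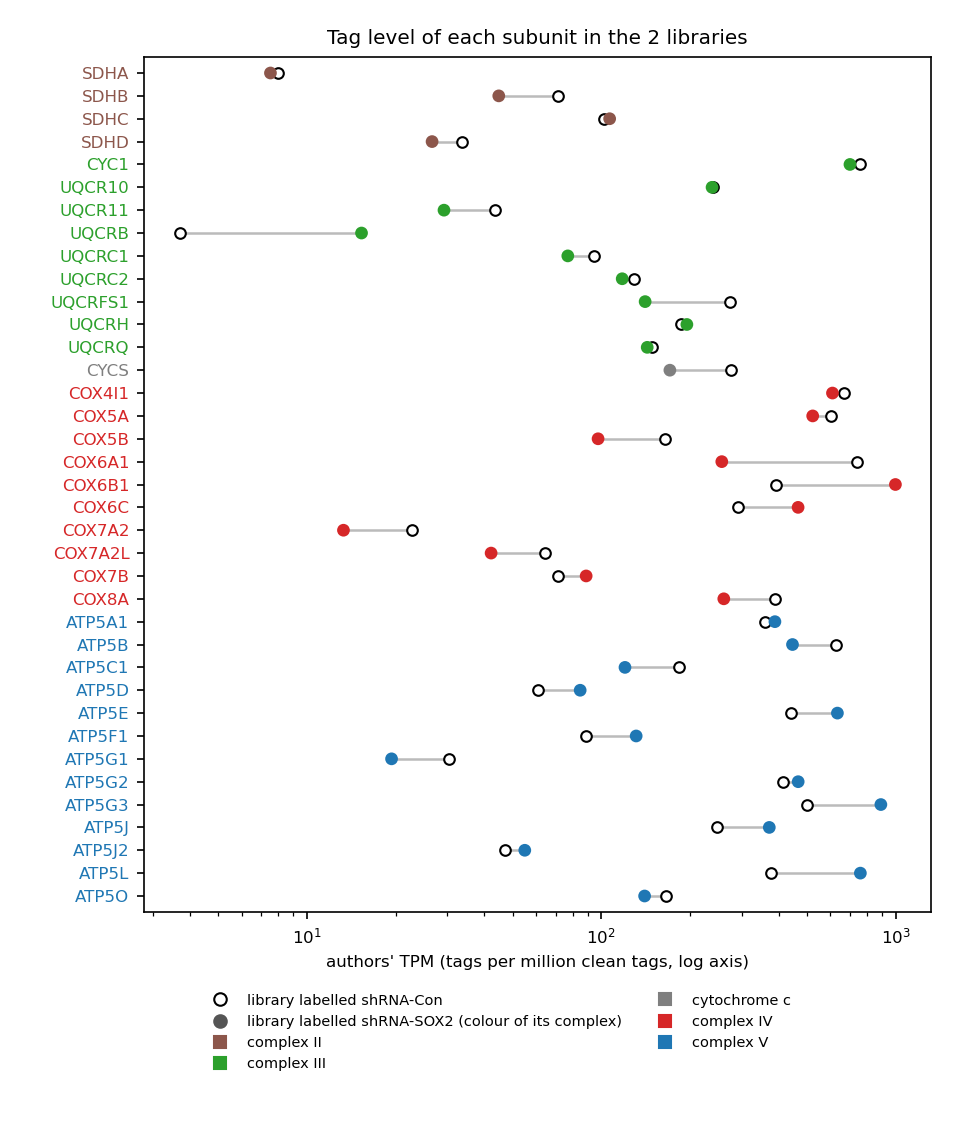
Level of each subunit gene with at least 20 tags in the authors' TPM (tags scaled to the clean tags of the library, log axis), with open circles for the library labelled shRNA-Con and filled circles, coloured by complex, for shRNA-SOX2. The levels run from 3.70 TPM (UQCRB, shRNA-Con) to 998 TPM (COX6B1, shRNA-SOX2), and the lines of COX6A1 and COX6B1 run in opposite directions.

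In complex V most calls were in 1 direction. Of its 13 genes 8 were higher, 2 were lower and 3 were not called. Over all genes 9.53% were called higher and 12.2% lower. Among genes with at least 200 tags, a level that 12 of the 13 reached, these shares were 20.7% and 27.4%. The pooled tags were 12457 and 15580, a ratio of 1.38 (1.34 to 1.41). The ratio was 1.27 with clean tags, 1.45 with TMM factors and 1.29 without ATP5G3, its most abundant member. With clean tags 5 of the 13 were called higher, since ATP5A1, ATP5D and ATP5G2 fell short, and 2 lower, while in complex IV 2 of 12 were then higher and 5 lower. Under that scaling 66.6% of all genes called were lower, against 56.1% with gene tags. The median log2 ratio over the 13 genes was 0.34, against -0.10 over genes with at least 200 tags.

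Within complex V the membrane sector with the peripheral stalk differed in its values from the catalytic head. The 8 genes of the former had 6575 and 9794 tags, a pooled ratio of 1.64 (1.59 to 1.69), with 5 called higher and 0 lower. Among them ATP5G1 had a ratio of 0.689 (0.5 to 0.944), below 1 but not called. The 5 genes of the head and central stalk had 5882 and 5786 tags, a pooled ratio of 1.08 (1.04 to 1.12), with 3 called higher and 2 lower, and that ratio was 1.001 with clean tags. This division was made after the values were seen. ATP5L, the g subunit of the membrane sector (Entrez Gene ID 10632), had 1326 and 2622 tags and the highest ratio of the complex, 2.18 (2.04 to 2.33, adjusted p = 6.33e-123, Fisher's exact test). ATP5G3, a gene for the proton-carrying c ring (Entrez Gene ID 518), had 1757 and 3078 tags, a ratio of 1.93 (1.82 to 2.05, adjusted p = 2.71e-109, Fisher's exact test). Stalk subunits F6 and b, from ATP5J (871 and 1286 tags) and ATP5F1 (311 and 454), had ratios of 1.62 (1.49 to 1.77) and 1.61 (1.39 to 1.86). ATP5O, which ties the stalk to the head, had 585 and 485 tags and was not called, with a ratio of 0.912 (0.807 to 1.03). ATP5J2, subunit f, had 165 and 190 tags (ratio 1.27, 1.02 to 1.57) and was not called either.

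In the head, the alpha and beta subunits alternate in equal number around the rotor. ATP5A1 (alpha) had 1263 and 1344 tags, a ratio of 1.17 (1.08 to 1.27, adjusted p = 0.000300, Fisher's exact test). ATP5B (beta, the catalytic subunit) had 2209 and 1542 tags, a ratio of 0.768 (0.719 to 0.820, adjusted p = 2.45e-14, Fisher's exact test). There were 1.75 tags of ATP5B per tag of ATP5A1 in shRNA-Con (1.63 to 1.88) and 1.15 in shRNA-SOX2 (1.07 to 1.24), so that the pair lay nearer to equal in the latter. The rotor subunits also split. ATP5C1 (gamma) was lower, with 647 and 416 tags and a ratio of 0.708 (0.624 to 0.802). ATP5E (epsilon) and ATP5D (delta) were higher, with 1548 and 2191 tags (ratio 1.56, 1.46 to 1.66) and 215 and 293 tags (ratio 1.5, 1.25 to 1.80).

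ATP5L is shown by its promoter (RefSeq, GRCh38.p14, plus strand, chr11:118401356-118401655) as the member of complex V with the highest ratio. Capitals mark its ETS match, CCGGAAG on the minus strand.
ATP5L: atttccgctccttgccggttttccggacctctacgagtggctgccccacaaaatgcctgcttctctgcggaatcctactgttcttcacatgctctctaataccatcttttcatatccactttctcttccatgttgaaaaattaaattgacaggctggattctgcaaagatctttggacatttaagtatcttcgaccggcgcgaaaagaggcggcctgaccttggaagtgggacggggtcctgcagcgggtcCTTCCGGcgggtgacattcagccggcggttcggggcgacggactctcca

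Promoters were found for 31 of the 39 genes, and those of SDHC, CYC1, UQCRB, COX6C, ATP5B, ATP5D, ATP5G3 and ATP5J2 were not used here. The ETS letters were in 12 of the 31 (38.7%), against 10.7% of all 27305 promoters of this length. Among subunits called higher 3 of 7 held it, and among those called lower 4 of 7. The YY1 letters AANATGGCG were in 6 of 31 (19.4%), against 3.37% of all promoters, with 1 of 7 called higher and 3 of 7 called lower. The NRF1 letters were in 9 of 31 (29.03%), against 6.28%, with 0 of 7 called higher and 2 of 7 called lower. The stricter NRF1 letters, GCGCA followed by TGCGC and contained in the former, were in 2 of 31 (SDHD and ATP5C1), against 1.36%. Both strands were searched, and a match is a description of these letters only. The ETS and YY1 letters thus occurred among genes of either direction, and with 7 promoters a side the shares are coarse.

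Subunit c is a special case, since 3 genes encode it. ATP5G1, ATP5G2 and ATP5G3 make precursors with different import sequences, and the last 75 residues of each coding sequence, translated from GENCODE release 29 transcripts, were identical in all 3. The 225 bases behind them differed, with 88.9% identity between ATP5G1 and ATP5G2 and 81.3% between ATP5G3 and either. The last 90 coding bases before the stop codon of ATP5G1 and ATP5G2 are given to show how far transcripts of the same protein differ, with the 10 differing bases in capitals.
ATP5G1: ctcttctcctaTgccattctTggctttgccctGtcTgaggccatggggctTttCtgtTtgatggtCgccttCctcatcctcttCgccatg
ATP5G2: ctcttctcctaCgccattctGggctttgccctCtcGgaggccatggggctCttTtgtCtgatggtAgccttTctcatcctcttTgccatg

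ATP5G3 supplied 53.0% of the c-subunit tags in shRNA-Con (interval 51.3% to 54.7%, of 3317 tags) and 64.7% in shRNA-SOX2 (63.3% to 66.1%, of 4757 tags; adjusted p = 1.82e-25, Fisher's exact test over 4 shares). The share of ATP5G2 was 43.8% (42.1% to 45.5%) and 33.9% (32.5% to 35.3%; adjusted p = 4.27e-19, Fisher's exact test), although its own tags were higher, at 1453 and 1612. ATP5G1 was a minor source, with 107 and 67 tags, or 3.23% (2.65% to 3.88%) and 1.41% (1.09% to 1.79%; adjusted p = 6.90e-08, Fisher's exact test). With only ATP5G2 and ATP5G3 counted the share of ATP5G3 was 10.9 percentage points higher, against 11.7 with all 3 genes. In the COX7A family the share of COX7A2 was 26.1% in shRNA-Con (21.2% to 31.3%) and 23.96% in shRNA-SOX2 (18.1% to 30.6%), and no difference was detectable (adjusted p = 0.672, Fisher's exact test). Its partner COX7A2L, a factor that joins complexes III and IV, had 227 and 146 tags (ratio 0.708, 0.571 to 0.875), and COX7A2 80 and 46 (ratio 0.633, 0.430 to 0.921). Neither passed FDR 0.001. These shares do not depend on the scaling of the libraries.

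**Figure D3:**
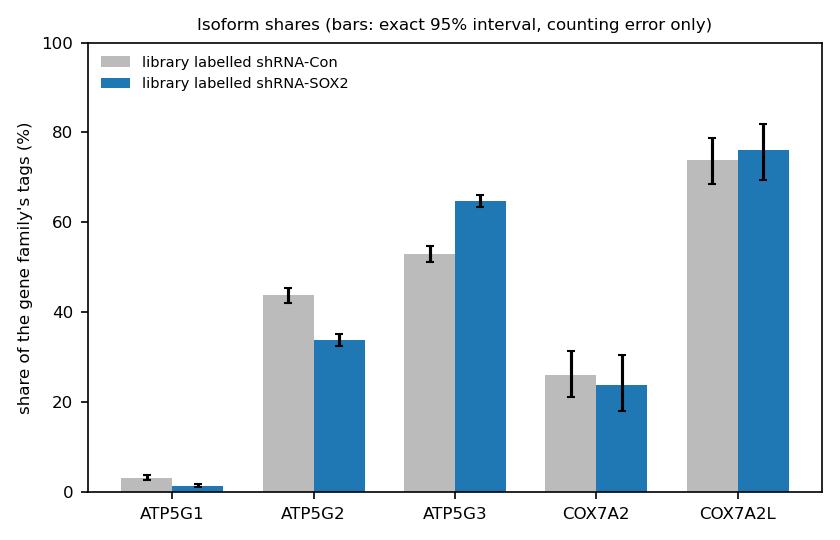
Share of each isoform gene in the tags of its family (percent), for the genes of subunit c (ATP5G1 to ATP5G3) and for COX7A2 and COX7A2L, in the library labelled shRNA-Con (grey) and shRNA-SOX2 (blue), with exact 95% intervals from counting error. ATP5G3 stands at 53.0% and 64.7%, while the intervals of COX7A2 overlap.

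Across the 39 genes the order of levels was kept in the main, with Spearman's rho of 0.946 between the libraries, given as a description of points that share both libraries. Of the 11 subunits called higher, ratios ran from 1.17 (ATP5A1) to 4.49 (UQCRB), and of the 8 called lower from 0.376 (COX6A1) to 0.768 (ATP5B). Processed copies could take part in these values. RefSeq lists a pseudogene named after 30 of the 39 genes, 16 of which were called, and of the 9 with none, 3 were called. Those were ATP5G3 and ATP5D, both higher, and COX8A, lower. The part of such copies in the other calls was not tested. The 3 genes that matched by name alone were not called. ATP5S had 31 and 13 tags, ATP5SL 208 and 251, and COX4NB, the neighbour of COX4I1 and part of a complex of the endoplasmic reticulum, 191 and 131.

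**Figure D4:**
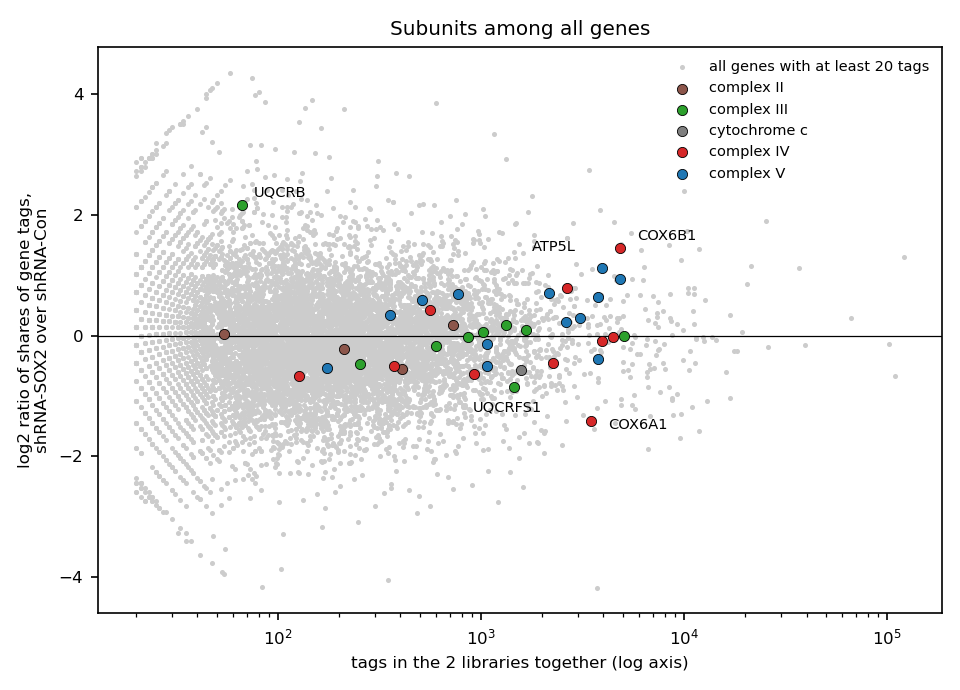
Log2 ratio of the shares of gene tags (shRNA-SOX2 over shRNA-Con) against the tags of the 2 libraries together (log axis) for the 10045 genes with at least 20 tags (grey) and for the 37 subunit genes, coloured by complex. COX6B1 and COX6A1 lie at 1.46 and -1.41 among abundant genes.

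Subunits that the name rule leaves out gave 1 more case. USMG5, a small protein of the ATP synthase membrane sector, had 2103 and 4201 tags (ratio 2.20, 2.09 to 2.32, adjusted p = 3.26e-201, Fisher's exact test), a value close to that of ATP5L. C14orf2, another small membrane protein of the enzyme, had 614 and 570 tags, ATPIF1, its inhibitor, 515 and 497, and NDUFA4, now counted with complex IV, 578 and 476. None of these 3 was called. Genes of the mitochondrial genome were not analysed here. COX7C, ATP5H and ATP5I fit the name rule but had no row under these symbols, and they were not analysed here either.

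Of 34 assembly factors of complexes II to V 9 were called higher and 5 lower, with a median log2 ratio of -0.04. The share called was 41.2%, beside 21.7% of all genes and 48.1% of genes with at least 200 tags. Factors of complex IV were among the strongest calls: C12orf62 (COX14) had 294 and 570 tags (ratio 2.13, 1.85 to 2.46), FAM36A (COX20) 391 and 635 (ratio 1.79, 1.57 to 2.03) and SURF1 280 and 433 (ratio 1.70, 1.46 to 1.98). UQCC, which serves complex III, had 204 and 340 tags (ratio 1.83, 1.54 to 2.19). LRPPRC, which stabilizes mitochondrial mRNAs, was lower with 884 and 522 tags (ratio 0.650, 0.582 to 0.725). Adjusted p-values of these 5, the smallest of the list, lay between 6.86e-26 and 4.64e-11 in Fisher's exact test. Other factors of complexes III and IV were called lower. TTC19 of complex III had 137 and 48 tags (ratio 0.386). CMC1 and SELRC1 of complex IV had 342 and 191 tags (ratio 0.615) and 36 and 8 tags (ratio 0.245).

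Among 16 regulators of respiratory genes 0 were called higher and 4 lower, with a median log2 ratio of -0.19 over the 14 with at least 20 tags. The 25% called lay near the 21.7% over all genes (9.53% higher and 12.2% lower). TFB2M, a mitochondrial transcription factor, had 214 and 101 tags (ratio 0.519, 0.406 to 0.661), and TFAM, which packs and transcribes mitochondrial DNA, 84 and 35 (ratio 0.459, 0.300 to 0.688). GABPB1, the partner of GABPA, had 103 and 44 tags (ratio 0.470, 0.323 to 0.675). PPARGC1A, a coactivator of mitochondrial genes, had 14 and 0 tags. Its ratio was 0.236 when the 0 is taken as 3 tags, with an interval of 0 to 0.332 from the counts. Their adjusted p-values lay between 2.31e-07 and 0.000707 in Fisher's exact test. NRF1 (50 and 54 tags), GABPA (69 and 57) and YY1 (437 and 447), whose letters were searched above, were not called.

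Around complex II, 13 enzymes of the citric acid cycle had 1 gene called higher and 3 lower. FH, fumarase, which takes the product of complex II, had 202 and 526 tags (ratio 2.87, 2.43 to 3.39). MDH2 had 1171 and 660 tags (ratio 0.620, 0.563 to 0.683), SUCLG2 184 and 43 (ratio 0.257, 0.180 to 0.360) and IDH3A 121 and 43 (ratio 0.391, 0.269 to 0.558). Complex I, the nearest relative among the sets compared, had 22 of 37 genes called, 13 higher and 9 lower, with a median log2 ratio of 0.11. This set was taken by symbol and includes NDUFA4, given above and not called, and NDUFA4L2 (18 and 0 tags), which is among the 9 lower. Mitochondrial ribosomal proteins had 4 of 76 higher and 17 lower (median -0.21), and the vacuolar proton pump, a relative of ATP synthase, 3 of 19 higher and 2 lower (median 0.13). Shares called were 30.8% for the citric acid cycle, 59.5% for complex I, 27.6% for mitochondrial ribosomal proteins and 26.3% for the vacuolar pump. Over all genes the share was 21.7%, and over genes with at least 200 tags 48.1%. These counts stand beside those of the respiratory complexes without a test of the difference.

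**Figure D5:**
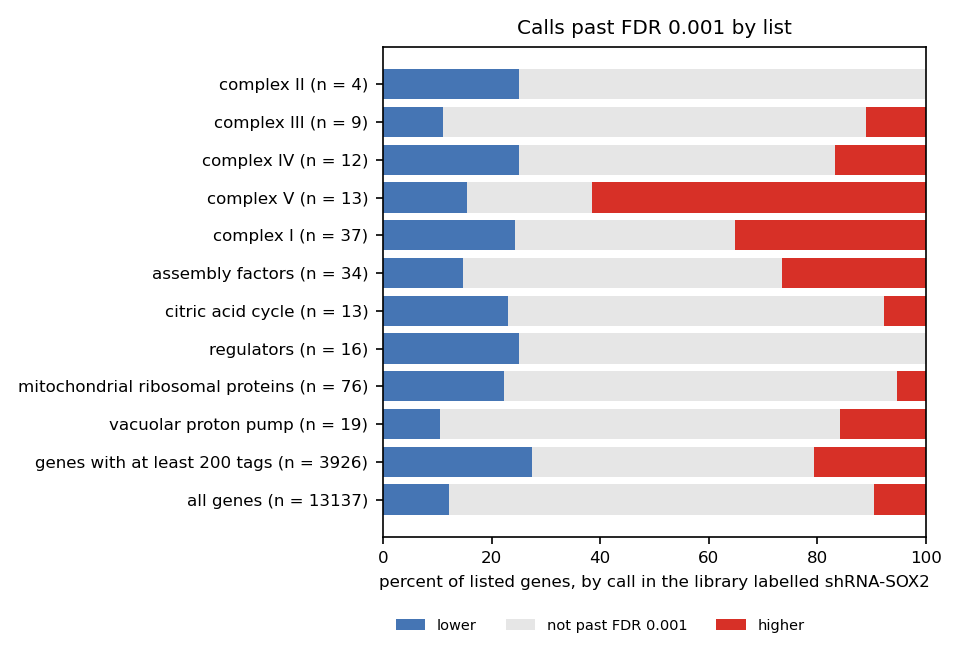
Percent of the genes of each list that were called lower (blue), not called (grey) or higher (red) at FDR 0.001 in the library labelled shRNA-SOX2, with the number of genes in each list. Complex V has 8 of 13 genes higher, and genes with at least 200 tags have 20.7% higher and 27.4% lower.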

How the data were processed

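Tags of oligo(dT)-selected mRNA from 4 µg of total RNA were profiled by digital gene expression at the Beijing Genomics Institute, 1 library per condition. The authors deposited raw tag counts per Entrez Gene ID. The authors also deposited TPM, in which counts are scaled to all clean tags and a count of 0 stands as 0.01. TPM was used for levels and to recover the clean tags (3516266 for shRNA-Con and 3456234 for shRNA-SOX2, of which 65.5% and 60.6% were on genes). The submitters' processing notes name hg 19, and the aligner and annotation are not given in the sources used here. Their log2 ratios, p-values and FDR compare the same libraries and were not used. Gene coordinates of the table were not used.

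Ratios were taken on gene tags, with counts under 3 set to 3 and no fold where both were at or under 3. Rows without a symbol (19 rows, 0.0535% and 0.0372% of gene tags) stayed in the totals and in the adjustment. With 1 library per condition edgeR's quasi-likelihood test could not be fitted, and Fisher's exact test was used. Intervals cover counting error only, since they use the counts of 1 library per condition. Tags carry no molecular identifiers, so amplified copies cannot be told from separate molecules. The tools were edgeR 4.0.16 and DESeq2 1.42.0 under R 4.3.3, and scipy 1.17.1 under Python 3.11.15. Fisher's exact test and the intervals were tried on simulated counts with counting error only, so spread between cultures was not covered. Members, lists and tests were chosen with earlier results of these data known. All members with at least 20 tags could be named. From each other list at most 5 genes could be, those with the smallest adjusted p-values past FDR 0.001. Exceptions were regulators whose letters were searched, the further assembly factors called, NDUFA4L2 and the 4 subunits outside the name rule. Ratios between pairs of subunits in a library were chosen after the values were seen.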

Additional observations from a re-analysis of the deposited data

How the results depend on the processing

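No paired analysis was possible because a single pair of libraries exists, and leaving out a library was impossible for the same reason. Of the 39 genes, 19 were called with gene tags, and 5 (4 higher and 1 lower: ATP5G3, ATP5L, COX6B1 and UQCRB higher, COX6A1 lower) once a coefficient of variation of 0.1 was put into edgeR's exact test. With 0.2 and with 0.4 the calls were 0 in each direction, with 6 and 1 of 39 genes at an unadjusted p under 0.05. Larger spreads widen the test by construction, and no replicate shows which value holds. Over all genes 2849 were called with gene tags, 1166 with 0.1, 113 with 0.2, 0 with 0.4 and 4902 at FDR 0.05. Without genes that have a pseudogene copy 3 of 9 were called, 2 higher and 1 lower, a setting chosen after seeing the data.

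Past 1.5-fold were 8 higher and 4 lower genes with gene tags, 6 higher and 9 lower with clean tags, and 9 higher and 3 lower with TMM or size factors. With 2-fold required 3 were higher and 1 lower.

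Pooled ratios moved as follows. Complex II was 0.936, and 0.759 without SDHC. Complex III was 0.955 with gene tags but 1.005 with TMM factors, 1.003 with DESeq2's size factors and 0.883 with clean tags, so its direction reversed. Complex IV was 1.07, with 1.12 for both factors, and it reversed to 0.987 with clean tags and to 0.848 without COX6B1. Complex V was 1.38, with 1.45 for both factors, 1.27 with clean tags and 1.29 without ATP5G3. For its head the ratio of 1.08 became 1.14 with both factors, 1.001 with clean tags and 1.27 without ATP5B. For the membrane sector and stalk 1.64 became 1.72 with both factors, 1.52 with clean tags and 1.53 without ATP5G3. These shifts follow from the construction of each setting. Of the 19 single calls 1 (SDHB) was lost with TMM or size factors and 3 (ATP5A1, ATP5D, ATP5G2) with clean tags. Depth leaves COX6B2 and COX8C, with 4 and 3 tags, without a fold, and gives wide intervals for SDHA (54 tags in all) and UQCRB (66).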
